A study of Mus musculus with 12 samples.

Results

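The genes described here are 53 genes of G2, mitosis and cytokinesis, taken from a list of symbols and measured in macrophages sorted from 2 mouse tissues. The list was matched by Ensembl identifier to 53 of the 46517 genes in the count table, and all 53 had counts in every library and passed the filter on low counts, which left 14216 genes for testing. They were divided by role into a cyclin-CDK core (6 genes), the spindle checkpoint and protein destruction (9), mitotic kinases and the chromosomal passenger complex (7), centromere and kinetochore (7), spindle assembly and microtubule proteins (6), kinesin motors (8), chromosome condensation and topology (7), and cytokinesis (3).

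All cells came from adult wild-type C57/BL6 mice. Live CD45+ cells that carried CD64, MerTK, CD11b and F4/80 were sorted by flow cytometry and split by surface LYVE-1, a hyaluronan receptor present on lymphatic endothelium and on a subset of tissue macrophages. The 4 groups were LYVE1+ and LYVE1- macrophages of the aorta (30 mice) and LYVE1+ and LYVE1- macrophages of epididymal and subcutaneous fat (20 mice), with 3 libraries each and ages not given beyond adult. Smart-seq2, a full-length bulk RNA-seq protocol, was run on 2 ng of RNA. Nothing in the labels tells if the replicate libraries are independent animal pools. The p-values therefore measure only the spread between libraries, which may be technical.

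Cells that prepare to divide switch on a common set of genes in G2 and early mitosis. Cyclin-dependent kinase 1 with its B-type cyclins starts mitosis, kinetochore proteins and kinesins attach and move the chromosomes on the spindle, the checkpoint holds anaphase back until all chromosomes are attached, and an actomyosin ring then splits the cell. Many of these genes are repressed in resting cells and activated late in the cycle through a shared promoter layout: a cell cycle genes homology region (CHR), bound by the MuvB core of the DREAM and B-Myb complexes, near the start site, and CCAAT boxes, bound by NF-Y, upstream of it. Tissue macrophages are known to be able to renew themselves by local division, so these transcripts are commonly read as a trace of dividing cells in a macrophage sample.

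Promoter sequences illustrate that layout and are shown for 6 members that were lower in LYVE1+ fat macrophages, each from a different role, and for the 3 members whose fitted difference in fat was not negative (Pttg1, Cenpa and Espl1). Each runs 5′ to 3′ on the gene's strand over 200 bases, from 170 before the RefSeq start site to 30 after it (assembly GRCm38.p6). Capitals mark the CHR-type hexamers TTTGAA or TTCGAA and the CCAAT box, on either strand, so that TTCAAA and ATTGG are the same motifs read from the other strand.
Ccnb2, cyclin-CDK core, chr9:70421525-70421724, minus strand: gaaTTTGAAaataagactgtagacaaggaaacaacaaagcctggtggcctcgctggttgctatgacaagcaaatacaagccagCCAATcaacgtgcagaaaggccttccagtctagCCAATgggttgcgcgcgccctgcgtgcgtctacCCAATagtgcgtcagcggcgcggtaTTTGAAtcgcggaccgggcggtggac
Cdc20, checkpoint and destruction, chr4:118437314-118437513, minus strand: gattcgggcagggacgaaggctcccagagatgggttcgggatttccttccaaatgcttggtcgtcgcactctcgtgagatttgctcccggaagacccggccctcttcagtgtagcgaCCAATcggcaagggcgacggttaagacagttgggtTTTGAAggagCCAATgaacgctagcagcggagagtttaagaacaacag
Prc1, spindle assembly, chr7:80294281-80294480, plus strand: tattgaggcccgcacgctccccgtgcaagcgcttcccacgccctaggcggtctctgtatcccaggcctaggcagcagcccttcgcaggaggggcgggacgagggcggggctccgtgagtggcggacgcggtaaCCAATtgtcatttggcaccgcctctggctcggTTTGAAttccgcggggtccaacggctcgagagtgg
Kif11, kinesin motor, chr19:37376212-37376411, plus strand: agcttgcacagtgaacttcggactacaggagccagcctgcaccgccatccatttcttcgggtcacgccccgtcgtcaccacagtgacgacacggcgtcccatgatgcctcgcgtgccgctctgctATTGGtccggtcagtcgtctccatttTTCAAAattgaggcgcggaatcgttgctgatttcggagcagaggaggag
Top2a, chromosome topology, chr11:99024160-99024359, minus strand: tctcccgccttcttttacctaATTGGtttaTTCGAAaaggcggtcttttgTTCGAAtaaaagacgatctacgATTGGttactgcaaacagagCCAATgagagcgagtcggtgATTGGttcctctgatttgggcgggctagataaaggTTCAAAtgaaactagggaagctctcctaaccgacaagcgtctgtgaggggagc
Racgap1, cytokinesis, chr15:99651627-99651826, minus strand: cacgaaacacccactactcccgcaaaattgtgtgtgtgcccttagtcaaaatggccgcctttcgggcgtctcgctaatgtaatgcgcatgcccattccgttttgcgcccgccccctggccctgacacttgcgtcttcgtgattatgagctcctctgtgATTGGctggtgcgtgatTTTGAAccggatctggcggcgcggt
Cenpa, centromere, chr5:30666716-30666915, plus strand: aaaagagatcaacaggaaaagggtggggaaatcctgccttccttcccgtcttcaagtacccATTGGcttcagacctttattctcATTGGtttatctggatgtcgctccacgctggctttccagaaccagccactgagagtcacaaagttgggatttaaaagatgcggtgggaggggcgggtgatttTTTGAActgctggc
Espl1, separase, chr15:102296123-102296322, plus strand: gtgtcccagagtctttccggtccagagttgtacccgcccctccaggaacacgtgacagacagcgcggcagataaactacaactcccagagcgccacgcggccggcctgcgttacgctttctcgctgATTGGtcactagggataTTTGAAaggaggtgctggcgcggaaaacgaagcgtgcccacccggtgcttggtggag
Pttg1, securin, chr11:43425952-43426151, minus strand: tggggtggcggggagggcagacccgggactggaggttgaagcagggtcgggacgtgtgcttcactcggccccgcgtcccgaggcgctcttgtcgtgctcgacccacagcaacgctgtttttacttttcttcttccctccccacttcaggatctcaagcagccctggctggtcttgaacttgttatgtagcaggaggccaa

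In Ccnb2 the 3 CCAAT boxes started 87, 54 and 21 bases before the start site, with 1 hexamer 5 bases after it and another 167 bases before it. Of the 53 members, 44 had an entry in the RefSeq promoter table, with 46 promoters of 300 bases (250 before to 50 after the start). A hexamer of either form, searched on both strands (TTCGAA is its own reverse complement), was found in 76.1% of those 46 promoters against 19.2% of all 32851 promoters and 14.3% of the promoters of genes tested here. The CCAAT box, on both strands, was found in 71.7% of members' promoters against 37.4% of all. In the members 1 CCAAT match, in the promoter of Cdca8, shared 1 base with a hexamer, and the share was 71.7% without it too. Both motifs together were found in 65.2% against 7.52%. The E2F-type octamers TTTCCCGC and TTTGGCGC, searched the same way, were found in 6.52% of members' promoters, in 30.8% of the promoters of a DNA replication list and in 1.56% of all promoters. These matches are a description of the letters in each window and are not evidence of binding.

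**Figure D1:**
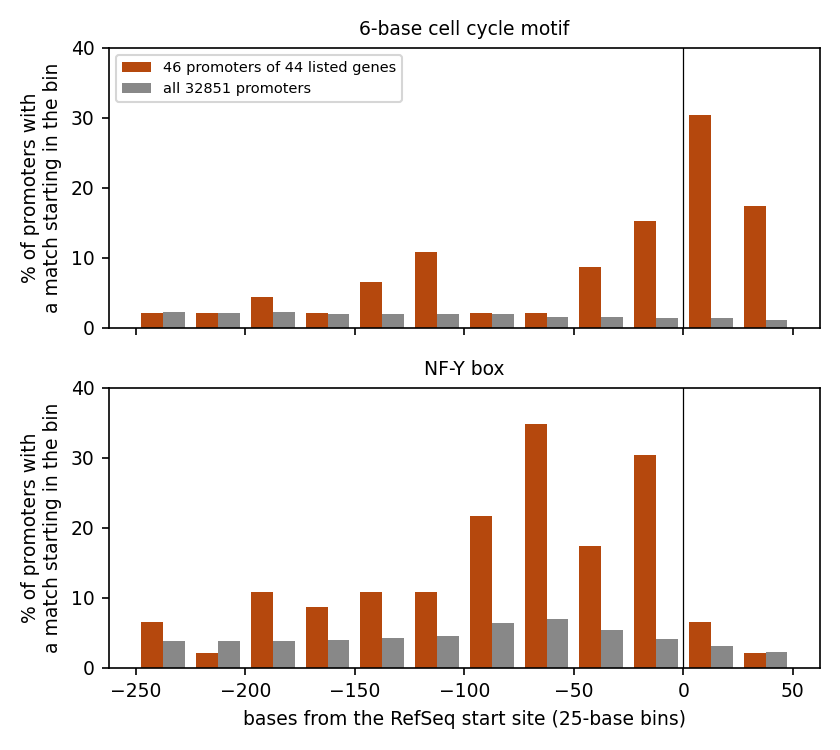
Share of promoters (percent, vertical axis) with a match starting in each 25-base bin of distance from the RefSeq start site (horizontal axis), for the CHR-type hexamer (top) and the CCAAT box bound by NF-Y (bottom), in 46 promoters of the listed genes and in all 32851 promoters. In the listed genes the hexamer was most frequent in the bin from 0 to 25 bases after the start (30.4% of promoters) and the CCAAT box in the bin from 75 to 50 bases before it (34.8%).

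The library totals ranged from 5049936 counts (LYVE1+ fat, library 1) to 29792301 (LYVE1- aorta, library 2), and the members together took 3095 to 31713 counts per library. The 6 genes of macrophage identity, which include the gate's own markers, summed to 5004 to 9758 CPM (counts scaled to the library total) in all 12 libraries. Both fat libraries numbered 1 stood apart: mitochondrial transcripts were 8.85% (LYVE1+) and 12.1% (LYVE1-) of their counts against 1.79% to 3.2% elsewhere, and erythroid markers summed to 25970 and 5279 CPM against at most 1402 CPM elsewhere. T and NK cell markers (292 and 149 CPM) and B cell markers (546 and 205 CPM) were also highest in those 2 libraries, while neutrophil markers stayed under 2 CPM in all libraries, with Ly6g at 0 in every group. Counts of calls, the sums by role and the calls that changed are therefore also given without these 2 libraries.

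The mitosis genes were lowest in LYVE1+ macrophages of fat. Their summed level, in CPM scaled by edgeR's TMM factors, was 594, 640 and 618 in the 3 LYVE1+ fat libraries and 1157, 1487 and 1567 in the LYVE1- fat libraries. In the aorta it was 1233, 1059 and 1224 in LYVE1+ cells and 1195, 1076 and 1049 in LYVE1- cells. The LYVE1+ fat libraries thus lay below all 9 others, and the LYVE1+ and LYVE1- aortic libraries overlapped. As a share of all counts the members made up 0.0595% to 0.0614% of the LYVE1+ fat libraries and 0.117% to 0.156% of the LYVE1- fat libraries, and the mean sum in fat was 2.27 times higher in LYVE1- cells. In bulk samples, fewer dividing cells and less of these RNAs per cell cannot be told apart.

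**Figure D2:**
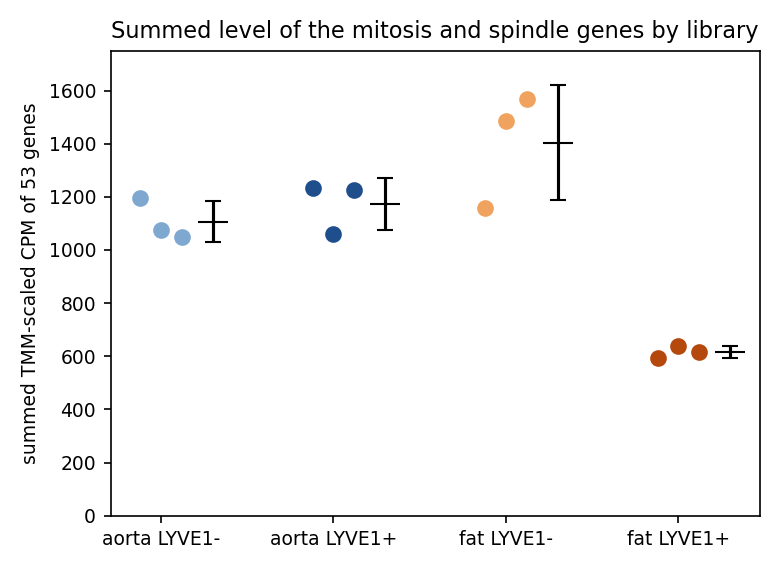
Summed TMM-scaled CPM of the 53 genes (vertical axis, from 0) in each library (points, libraries 1 to 3 from left to right) of the 4 groups, with the mean and SD over 3 libraries beside them in black. The 3 LYVE1+ fat libraries sit between 594 and 640 CPM and the other 9 between 1049 and 1567 CPM.

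Within fat, 38 of the 53 members were called lower in LYVE1+ than in LYVE1- macrophages and 0 higher (edgeR's quasi-likelihood test, Benjamini-Hochberg adjusted p under 0.05 over all 14216 genes). That is 71.7% of the members, where 2.1% of all genes tested were called lower, 1.82% higher and 3.93% in either direction. The members' median log2 fold change was -1.62, against 0.0048 over all genes tested, and 50 of 53 were negative. In 42 members all 3 LYVE1+ fat libraries lay below all 3 LYVE1- fat libraries (9.83% of all genes tested did so), and in 1, Pttg1, they lay above (9.12% of all genes did so). For 34 members (64.2%) the 3 LYVE1+ fat libraries lay below all 9 other libraries of the study, as they did for 2.76% of all genes tested. Without both fat libraries numbered 1 the count of called members was 41, where 3.26% of all genes were called lower. In that fit 37 of the 38 calls were kept, Kif15 was lost (-1.75 ± 0.50, adjusted p = 0.062 by edgeR), and Ccnb1, Cks2, Ncaph and Ube2c were gained. No member changed sign, and the members' log2 fold changes shifted by between -0.50 and 0.37.

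The size of the count depended on single libraries, as did the share of all genes called. It fell to 22 without LYVE1+ fat library 2 and to 23 without LYVE1- fat library 3, where 0.798% and 1.22% of all genes were called lower. In all 12 fits that each left out 1 library, 20 members were called, with adjusted p up to 0.0485 in edgeR. How many of all genes tested kept a call in all 12 fits was not counted. Those 20 were Aurka, Birc5, Bub1b, Ccnb2, Cdc20, Cdca8, Ect2, Hmmr, Kif11, Kif22, Mki67, Ncapd2, Nusap1, Prc1, Racgap1, Spc24, Stmn1, Tacc3, Top2a and Tpx2. The other 18 lost their call in between 1 (Ccna2 and Plk1) and 11 (Bub1 and Cdk1) of these fits. With only the 6 fat libraries in the fit the count was 22, where 0.946% of all genes were called lower. The median log2 fold change stayed between -1.73 and -1.51 under all 19 alternatives run.

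**Figure D3:**
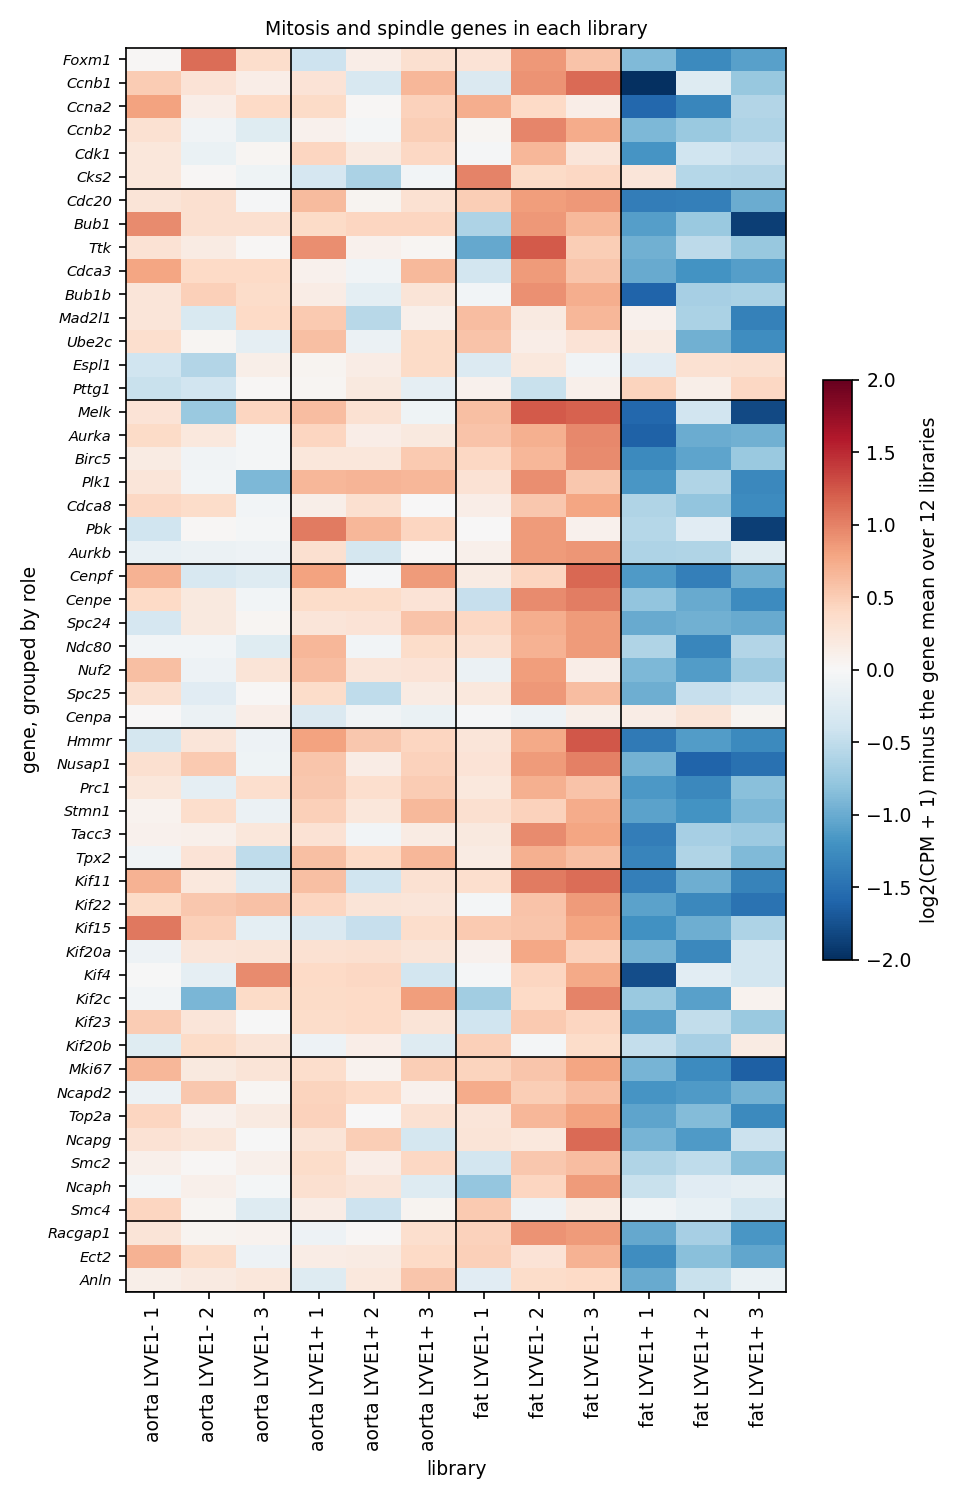
Each of the 53 genes (rows, grouped by role with lines between roles) in each of the 12 libraries (columns), as log2(CPM + 1) minus that gene's mean over the 12 libraries, on a colour scale limited to -2 (blue) and 2 (red). The 3 LYVE1+ fat columns are blue for most genes, with Pttg1, Cenpa and Espl1 among the exceptions, and 15 and 22 genes had their highest CPM in LYVE1- fat libraries 2 and 3.

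In the cyclin-CDK core, 4 of 6 genes were called lower in LYVE1+ fat macrophages, and the summed level of the 6 was 2.56 times higher in LYVE1- fat cells. Cyclin B2 (Ccnb2), an activator of CDK1, stood at 18.7, 36.5 and 30.9 CPM in LYVE1- fat libraries 1 to 3 and at 9.21, 10.4 and 11.5 CPM in the LYVE1+ ones. In the aorta it was 22.5, 17.2 and 15.2 CPM in LYVE1- and 19.3, 17.5 and 26.0 CPM in LYVE1+ libraries. The fat groups did not overlap and the aortic groups did. Its log2 fold change in fat was -1.46 ± 0.27 (SE; adjusted p = 0.0084), or 2.76-fold lower. Cyclin A2 (Ccna2), which acts from S phase into early mitosis, was 31.2, 24.5 and 20.2 CPM in LYVE1- fat and 5.57, 6.85 and 12.0 CPM in LYVE1+ fat, with 18.6 to 32.9 CPM in the aorta. The LYVE1+ fat libraries were the lowest of the 12, at 3.07-fold below LYVE1- fat (log2 fold change -1.62 ± 0.30, adjusted p = 0.0087), and the call ended without LYVE1+ fat library 2. Foxm1, the transcription factor that activates many G2 and mitosis genes, was 10.6, 16.4 and 13.2 CPM in LYVE1- fat and 4.22, 2.95 and 3.53 CPM in LYVE1+ fat. Its log2 fold change was -1.93 ± 0.36 (adjusted p = 0.0099), with no overlap between the groups. Cdk1, the kinase itself, was called with the smallest change of the 4 (-1.005 ± 0.25, adjusted p = 0.041) and lost its call in 11 of the 12 fits that left out a library. Cks2, a small subunit that binds the kinase, and cyclin B1 (Ccnb1) were not called, with -0.94 ± 0.28 (adjusted p = 0.093) and -1.69 ± 0.51 (adjusted p = 0.094). Both were called once the library numbers entered the edgeR fit as a replicate block, Cks2 at -0.95 ± 0.22 (adjusted p = 0.031) and Ccnb1 at -1.84 ± 0.33 (adjusted p = 0.011). For Ccnb1 the libraries of a group spread widely: 8.96, 21.8 and 25.7 CPM in LYVE1- fat and 1.54, 9.19 and 6.25 CPM in LYVE1+ fat, so that the groups overlapped.

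The checkpoint and destruction genes were divided, with 4 of 9 called lower. Cdc20, which activates the anaphase-promoting complex and is the target of the checkpoint, was 23.8, 30.6 and 31.3 CPM in LYVE1- fat and 5.76, 5.81 and 7.86 CPM in LYVE1+ fat. Aortic levels were 20.1, 20.96 and 16.3 CPM in LYVE1- and 26.3, 17.3 and 20.7 CPM in LYVE1+ libraries. The LYVE1+ fat libraries were far below all others, 4.39-fold below LYVE1- fat (log2 fold change -2.13 ± 0.23, adjusted p = 0.00047). Bub1b (BubR1), a checkpoint kinase-like protein, was 23.4, 46.8 and 40.8 CPM in LYVE1- fat against 7.29, 15.0 and 15.2 CPM in LYVE1+ fat (log2 fold change -1.54 ± 0.29, adjusted p = 0.010). Cdca3, a trigger of mitotic entry through protein destruction, was 5.37, 13.8 and 11.1 CPM against 3.07, 2.60 and 2.82 CPM (-1.84 ± 0.37, adjusted p = 0.015). Neither pair of groups overlapped. The checkpoint kinase Bub1 was called at -1.99 ± 0.50 (adjusted p = 0.043). It lost the call in 11 of 12 fits that left out a library.

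The other 5 of these genes were not called. Mad2l1, the checkpoint's inhibitor of Cdc20, was at -1.13 ± 0.40 (adjusted p = 0.16), and Ube2c, the ubiquitin-conjugating enzyme of the anaphase-promoting complex, at -0.98 ± 0.36 (adjusted p = 0.19). Ttk, the kinase that starts checkpoint signalling, had the lowest mean CPM of all members, at 0.512, 6.18 and 3.29 CPM in LYVE1- fat and 0.576, 1.13 and 0.806 CPM in LYVE1+ fat. It stood at 2.13 to 4.81 CPM in the aorta, its groups overlapped in fat, and its change of -1.96 ± 0.75 was not called (adjusted p = 0.20). Securin (Pttg1), which holds separase inactive until anaphase, and separase (Espl1), which cuts cohesin, were not negative in fat. Pttg1 was 30.5, 20.9 and 30.9 CPM in LYVE1- fat and 39.3, 31.3 and 38.6 CPM in LYVE1+ fat. These groups did not overlap, with the LYVE1+ libraries above, but the change of 0.41 ± 0.20 was not called (adjusted p = 0.36). Espl1 was 30.5, 42.7 and 35.2 CPM in LYVE1- fat and 31.5, 45.8 and 46.3 CPM in LYVE1+ fat, with overlapping groups and a change of 0.19 ± 0.22 (adjusted p = 0.75).

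Among the mitotic kinases and passenger proteins, 6 of 7 were called lower, among them 3 of the 4 subunits of the chromosomal passenger complex. This complex corrects wrong attachments of chromosomes to the spindle. Its scaffold Incenp, which is counted with the further mitosis genes, was not called, at 50.1 ± 8.6 CPM in LYVE1- and 41.3 ± 6.3 CPM in LYVE1+ fat (SD, n = 3) with overlapping groups (log2 fold change -0.28 ± 0.16, adjusted p = 0.44 by edgeR). Its survivin subunit (Birc5) was 19.6, 23.3 and 28.6 CPM in LYVE1- fat and 5.37, 6.41 and 8.16 CPM in LYVE1+ fat. In the aorta it was 16.3, 13.7 and 14.0 CPM in LYVE1- and 17.0, 17.1 and 21.1 CPM in LYVE1+ libraries. The order of the groups was thus opposite in the 2 tissues, without overlap in either, although only the fat difference was called (log2 fold change -1.83 ± 0.23, adjusted p = 0.00085). Of all genes tested, 11.1% had every LYVE1+ aortic library above every LYVE1- one. Borealin (Cdca8) was 18.3, 24.5 and 29.4 CPM against 10.6, 9.10 and 6.35 CPM in fat (-1.49 ± 0.25, adjusted p = 0.0054), and the kinase Aurkb changed least of the 3 called subunits (-1.17 ± 0.24, adjusted p = 0.014). Aurora A (Aurka), the kinase of spindle poles, was 13.2, 14.6 and 17.5 CPM in LYVE1- fat and 2.11, 3.81 and 3.93 CPM in LYVE1+ fat. It lay between 8.32 and 11.8 CPM in all 6 aortic libraries, so that LYVE1- fat was highest, LYVE1+ fat lowest and the aorta between them. The fat difference was 4.50-fold (log2 fold change -2.17 ± 0.29, adjusted p = 0.0013). Polo-like kinase 1 (Plk1) and Melk were called at -1.77 ± 0.34 (adjusted p = 0.012) and -2.46 ± 0.52 (adjusted p = 0.018). Pbk, a kinase active in mitosis, was not called (-1.25 ± 0.43, adjusted p = 0.16), although its fat groups did not overlap.

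Of the 7 centromere and kinetochore genes, 6 were called lower, including all 4 subunits of the NDC80 complex, which binds the ends of spindle microtubules. Spc24 was 12.9, 16.3 and 17.9 CPM in LYVE1- fat and 4.22, 4.42 and 4.23 CPM in LYVE1+ fat, with 7.36 to 14.5 CPM in the aorta (log2 fold change -1.87 ± 0.25, adjusted p = 0.0014). Ndc80 was 11.3, 15.2 and 17.0 CPM against 5.57, 3.03 and 5.64 CPM in fat (-1.62 ± 0.32, adjusted p = 0.012). Nuf2 changed by -1.50 ± 0.36 and Spc25 by -1.29 ± 0.32 (adjusted p = 0.034 and 0.042). The 4 subunits differed in how firmly they were called: Spc24 held in each of the 12 fits that left out a library, and the other 3 lost their call in at least 2 of them. Cenpf, a protein of the outer kinetochore, was 10.5, 12.8 and 21.7 CPM against 3.65, 2.95 and 4.23 CPM (-2.06 ± 0.41, adjusted p = 0.014). Cenpe, the kinesin that carries chromosomes to the spindle's middle, changed by -1.89 ± 0.38 (adjusted p = 0.014). The exception was Cenpa, the histone H3 variant that marks centromeres, at 57.6, 54.7 and 63.5 CPM in LYVE1- fat and 65.1, 69.8 and 60.4 CPM in LYVE1+ fat. Those groups overlapped (0.15 ± 0.13, adjusted p = 0.65). The 7 genes together, Cenpa included, were 1.56 times higher in LYVE1- fat, which with the checkpoint genes was the smallest ratio of the 8 roles. Without both fat libraries numbered 1 these ratios were 1.70 and 1.67, and the 8 roles ranged from 1.67 to 3.63.

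All 6 spindle assembly and microtubule genes were called lower in LYVE1+ fat cells, and their sum had the largest ratio of the 8 roles, 3.41. Stathmin (Stmn1), which binds free tubulin, was 32.1, 35.4 and 43.2 CPM in LYVE1- fat and 11.7, 10.6 and 13.2 CPM in LYVE1+ fat. Aortic libraries gave 27.0, 32.9 and 23.4 CPM in LYVE1- and 36.1, 29.9 and 40.6 CPM in LYVE1+ libraries. The fat groups were far apart and the aortic groups overlapped (fat log2 fold change -1.64 ± 0.20, adjusted p = 0.00067). Nusap1, which bundles spindle microtubules near chromosomes, was 20.5, 31.2 and 34.9 CPM against 8.25, 4.85 and 5.34 CPM in fat (-2.26 ± 0.28, adjusted p = 0.00085). Prc1, the crosslinker of the central spindle, was 24.95, 35.8 and 32.7 CPM against 9.21, 8.23 and 11.7 CPM (-1.68 ± 0.21, adjusted p = 0.00095). Both genes had every LYVE1+ fat library below the other 9 libraries. Hmmr, a spindle protein that also binds hyaluronan, was 8.19, 12.2 and 17.4 CPM in LYVE1- fat and 1.92, 2.60 and 2.22 CPM in LYVE1+ fat. In the aorta it was 5.08, 8.17 and 6.25 CPM in LYVE1- and 12.6, 10.4 and 9.53 CPM in LYVE1+ libraries, again the opposite order without overlap but not called. The fat difference was 5.54-fold, the largest of the 53 members (-2.47 ± 0.35, adjusted p = 0.0018). Tacc3 and Tpx2, which work with Aurora A, changed by -1.63 ± 0.24 and -1.51 ± 0.27 (adjusted p = 0.0023 and 0.0077).

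Of the 8 kinesin motors, 5 were called lower. Kif11 (Eg5), which pushes the spindle poles apart, was 17.8, 29.8 and 31.6 CPM in LYVE1- fat and 4.799, 6.59 and 4.94 CPM in LYVE1+ fat, with 10.4 to 23.1 CPM in the aorta (log2 fold change -2.27 ± 0.35, adjusted p = 0.0031). Kif22, a motor on chromosome arms, was 16.0, 24.8 and 30.6 CPM against 7.29, 6.15 and 5.24 CPM in fat (-1.95 ± 0.24, adjusted p = 0.00085). Kif20a, needed for cytokinesis, was 11.3, 18.8 and 14.9 CPM against 4.99, 3.73 and 7.96 CPM (-1.43 ± 0.30, adjusted p = 0.019). None of these fat groups overlapped. Kif15, which backs up Kif11, and Kif23, part of the centralspindlin complex, were called at -1.85 ± 0.42 and -1.01 ± 0.24 (adjusted p = 0.027 and 0.033) and lost the call in 5 and 8 of the 12 fits that left out a library. Kif4 and Kif2c had the lowest mean CPM after Ttk. Kif4 was 4.99, 7.16 and 9.26 CPM in LYVE1- fat and 0.768, 4.25 and 3.73 CPM in LYVE1+ fat (-1.25 ± 0.55, adjusted p = 0.29). Kif2c, which takes microtubules apart, was 2.82, 7.07 and 11.2 CPM against 2.69, 1.91 and 5.44 CPM, with overlapping groups (-1.07 ± 0.56, adjusted p = 0.40). Kif20b was not called either (-0.64 ± 0.34, adjusted p = 0.40).

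Of the 7 chromosome condensation and topology genes, 5 were called lower. Mki67 (Ki-67), the proliferation marker that coats mitotic chromosomes, was 79.1, 84.8 and 101 CPM in LYVE1- fat and 29.9, 23.7 and 17.8 CPM in LYVE1+ fat. Aortic libraries held 91.5, 66.4 and 69.2 CPM in LYVE1- and 73.5, 60.4 and 81.5 CPM in LYVE1+ libraries. All 3 LYVE1+ fat libraries lay below the other 9, and the fat difference was 3.73-fold (log2 fold change -1.90 ± 0.21, adjusted p = 0.00047). Topoisomerase 2α (Top2a), which untangles sister DNA, was 69.5, 92.6 and 102 CPM in LYVE1- fat and 27.4, 31.4 and 23.6 CPM in LYVE1+ fat, with 58.9 to 80.8 CPM in the aorta. All 3 LYVE1+ fat libraries again lay below the other 9 (-1.68 ± 0.19, adjusted p = 0.00052). The condensin I complex was divided. Its subunit Ncapd2 was 47.9, 39.9 and 43.7 CPM against 11.9, 12.2 and 14.2 CPM in fat (-1.77 ± 0.20, adjusted p = 0.00055), and Ncapg and Smc2 were called at -1.59 ± 0.37 and -1.02 ± 0.24 (adjusted p = 0.030 for both). Ncaph (-0.62 ± 0.32, adjusted p = 0.40) and Smc4 (-0.42 ± 0.22, adjusted p = 0.39) were not called. Smc4, at 90.3, 58.5 and 70.2 CPM in LYVE1- fat and 59.5, 56.1 and 48.4 CPM in LYVE1+ fat, had overlapping groups.

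In cytokinesis, 2 of 3 genes were called lower. Racgap1, the partner of Kif23 in centralspindlin, was 53.9, 73.3 and 70.8 CPM in LYVE1- fat and 18.6, 24.1 and 16.8 CPM in LYVE1+ fat. Its aortic levels were 46.7, 40.5 and 41.0 CPM in LYVE1- and 36.4, 39.5 and 49.4 CPM in LYVE1+ libraries. LYVE1- fat was highest and LYVE1+ fat lowest, with the 6 aortic libraries between them (fat log2 fold change -1.73 ± 0.19, adjusted p = 0.00047). Ect2, which centralspindlin recruits to the central spindle, was 15.0, 12.9 and 17.4 CPM against 3.84, 5.37 and 4.54 CPM in fat (-1.70 ± 0.27, adjusted p = 0.0038). Anillin (Anln), the scaffold of the contractile ring, was 19.6, 30.1 and 30.8 CPM against 10.9, 16.7 and 21.1 CPM, with overlapping groups (-0.71 ± 0.27, adjusted p = 0.20).

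**Figure D4:**
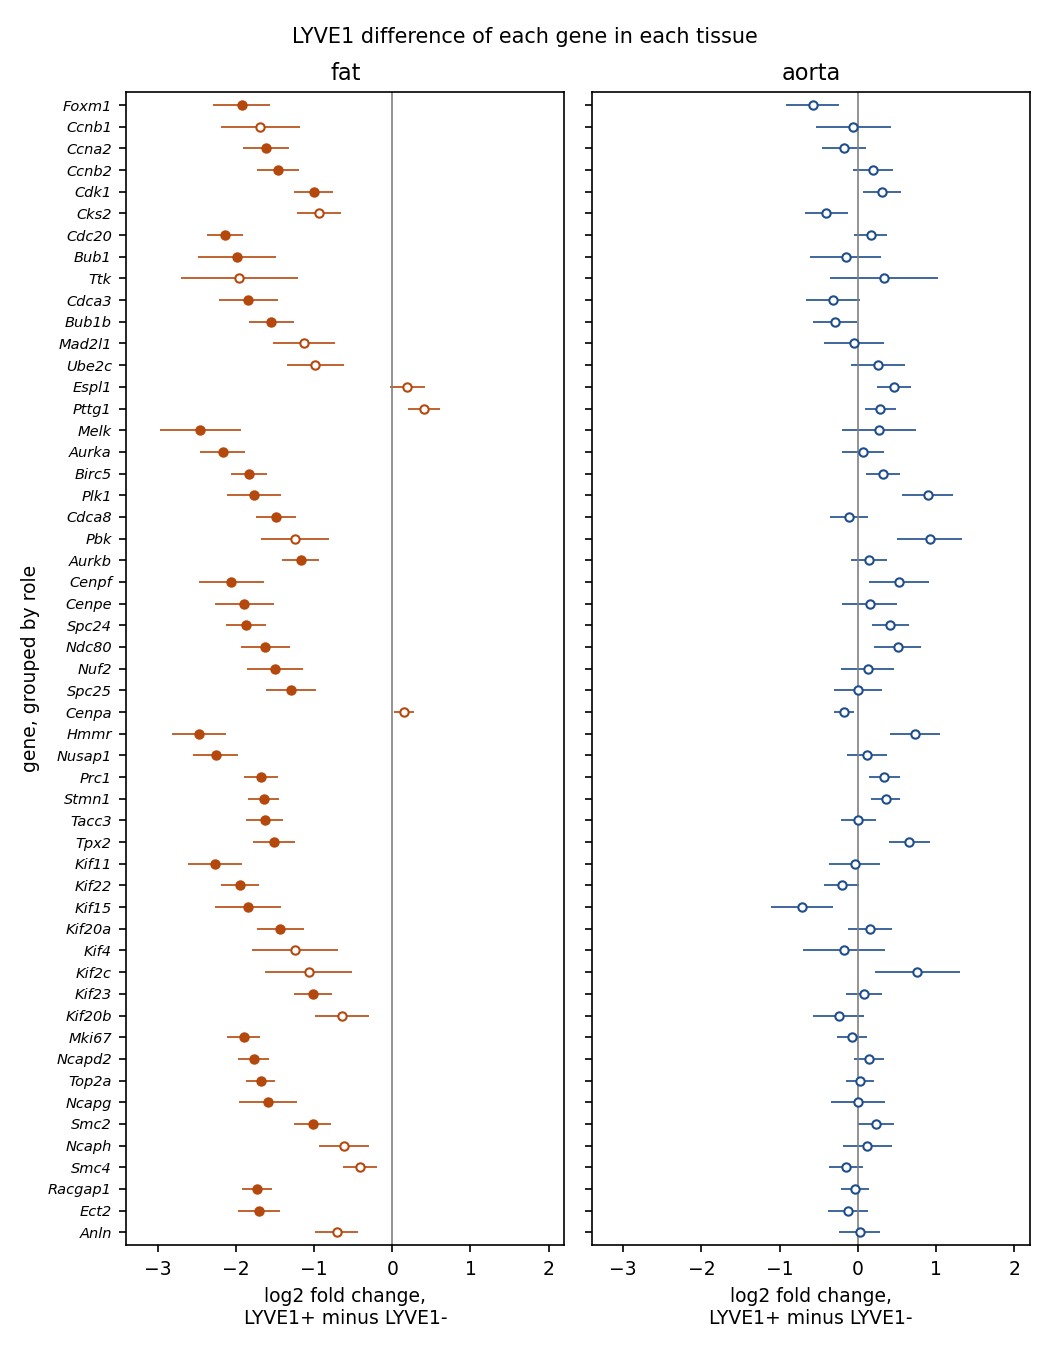
Log2 fold change, LYVE1+ minus LYVE1- (horizontal axis), of each of the 53 genes (rows, grouped by role) in fat (left) and aorta (right), with bars for 1 SE and filled points for genes with adjusted p under 0.05. In fat 38 points are filled, all of them negative, and in the aorta none is filled and the median is 0.12.

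In the aorta no member passed the test between LYVE1+ and LYVE1- macrophages. By edgeR 0 of 53 members were called, where 0.542% of all genes tested were called (0.113% higher and 0.429% lower), 5 members had an unadjusted p under 0.05, and DESeq2 also called 0. The median log2 fold change was 0.12 (-0.013 over all genes tested), 34 members were positive and 19 negative. In 8 members all LYVE1+ libraries lay above all LYVE1- libraries (11.1% of all genes tested did so), and in 0 they lay below. Besides Birc5 and Hmmr, these included Plk1, at 17.6, 17.8 and 17.6 CPM in LYVE1+ and 12.8, 10.3 and 5.28 CPM in LYVE1- aortic libraries (0.90 ± 0.32, adjusted p = 0.31), and Pbk (0.92 ± 0.41, adjusted p = 0.43).

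The difference between the tissues was tested itself, as the fat change minus the aortic change. It was called lower for 13 of 53 members and higher for 0, where 0.148% of all genes tested were called lower, 0.00703% higher and 0.155% in either direction. The members' median difference was -1.63 (0.02 over all genes). By role, 5 of the 13 were spindle assembly genes (Hmmr, Nusap1, Prc1, Stmn1 and Tpx2), 3 were condensation and topology genes (Mki67, Ncapd2 and Top2a), 2 belonged to the kinases and passenger complex (Aurka and Birc5), and Cdc20, Spc24 and Racgap1 stood for 1 role each. Hmmr had the largest difference (-3.20 ± 0.47, adjusted p = 0.021). No cyclin-CDK gene and no kinesin was among them. Without both fat libraries numbered 1, however, Ccnb2 (-1.82 ± 0.34, adjusted p = 0.034 by edgeR) and the kinesin Kif22 (-2.08 ± 0.28, adjusted p = 0.0064) were called. Aurkb, Cdca8, Plk1, Cenpe, Ndc80, Tacc3 and Smc2 also gained the call in that fit. The count of 13 was not stable: 0 members were called without any one of LYVE1- aorta 1 or 3, LYVE1+ aorta 1 or 3, LYVE1- fat 2 or 3, or LYVE1+ fat 2, and 1 and 4 were called without LYVE1- aorta 2 and LYVE1+ fat 3. Over the whole table the fits with 0 members also called 0 genes, and the fits with 1 and 4 members called 1 and 5 genes. The count of members was 27 with DESeq2 and 22 without both fat libraries numbered 1, where 0.573% and 0.413% of all genes were called lower. With the replicate block it was 12, of which 10 were among the 13: Aurka (adjusted p = 0.071 by edgeR), Nusap1 (0.091) and Spc24 (0.053) lost the call, and Plk1 and Tacc3 gained it. With the prefix of the library names (RMM or RHH) as a term it was 0, and 0 of all genes tested were called. That prefix was the same for all fat libraries and LYVE1+ aorta 1 and 2, and another for LYVE1+ aorta 3 and all LYVE1- aortic libraries, so in the aorta it nearly coincided with the sort. The comparison within fat lies inside 1 prefix. What the prefix stands for is not given in the sources used here. The direction was kept, since the median difference stayed between -1.84 and -1.49 under the 18 alternatives run.

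**Figure D5:**
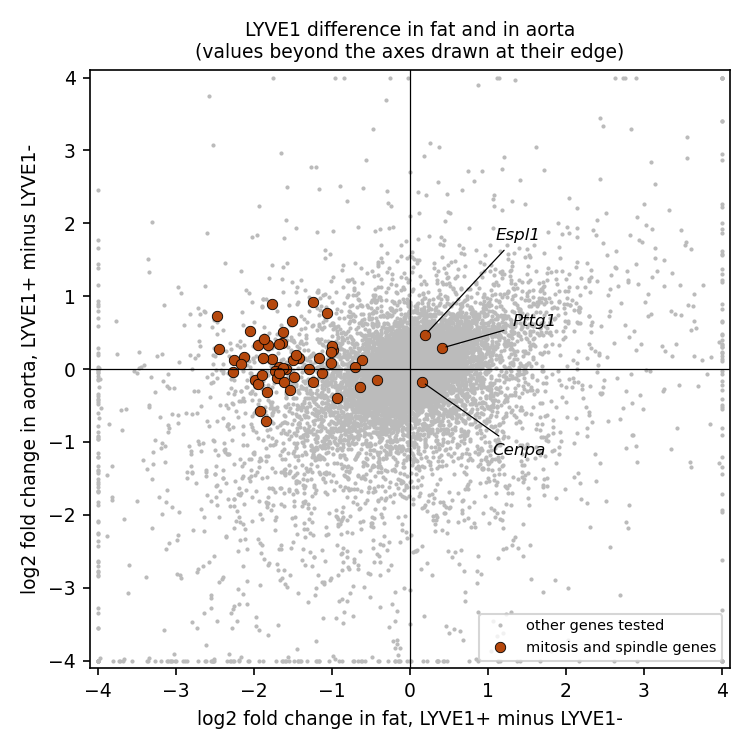
Log2 fold change, LYVE1+ minus LYVE1-, in fat (horizontal axis) and in aorta (vertical axis) for all 14216 genes tested (grey) and the 53 mitosis and spindle genes (orange), with values beyond 4 in either direction drawn at the edge. Of the 53 genes 50 lie left of 0 in fat, while in the aorta 34 lie above 0 and 19 below.

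Levels were also compared between the tissues within each sort. These comparisons reuse the same libraries as those above and are given as values side by side. Among LYVE1+ cells, 29 members were called lower in fat than in aorta and 0 higher, where 1.88% of all genes tested were called lower, 1.12% higher and 3% in either direction, and the median log2 fold change was -1.32. Mki67 was at -1.60 ± 0.21 (adjusted p = 0.0020) in this comparison, Stmn1 at -1.59 ± 0.20 (adjusted p = 0.0015) and Cdc20 at -1.72 ± 0.23 (adjusted p = 0.0022). The count was 15 to 18 when LYVE1+ aorta 1 or 3 or LYVE1+ fat 2 or 3 was left out (16, 15, 18 and 15), where 0.738% to 0.923% of all genes were called lower. In all 12 fits that left out 1 library, 13 members were called, and the share of all genes that did so was not counted. The prefix term gave 15 and a fit of only the 2 groups gave 19, where 0.83% and 1.13% of all genes were called lower. Leaving out both fat libraries numbered 1 gave 33, where 3.57% of all genes were called lower. Among LYVE1- cells, 48 of 53 members were positive in fat against aorta, with a median of 0.39, but edgeR called 0 (0.823% of all genes tested were called higher, 1.66% lower and 2.48% in either direction). An unadjusted p under 0.05 was found for 16 members, and DESeq2 called 2, Aurkb (0.79 ± 0.25, adjusted p = 0.037) and Racgap1 (0.62 ± 0.20, adjusted p = 0.042), both higher in fat. DESeq2 called 2.13% of all genes higher, so that 2 of 53 is near that background. Without both fat libraries numbered 1, edgeR called 6 higher (Aurkb, Birc5, Ccnb2, Hmmr, Racgap1 and Tacc3), where it called 2.8% of all genes higher, with Aurkb at 1.01 ± 0.20 (adjusted p = 0.011). Without LYVE1- fat library 1 alone it called 1, Aurkb, where it called 0.835% of all genes higher, so that 1 of 53 is near that background. All LYVE1- fat libraries had 1 library-name prefix and all LYVE1- aortic libraries the other. Tissue and prefix therefore cannot be told apart in this comparison of LYVE1- cells. With the prefix as a term edgeR called 0 members and 0.0492% of all genes there. By mean level, LYVE1- fat was the highest of the 4 groups for 40 members and LYVE1+ fat the lowest for 49.

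Markers of other cell types also differed between the tissues. In LYVE1+ cells the 6 fibroblast markers summed to 838 to 2507 CPM of the plain library size in aorta and 401 to 650 CPM in fat, and 2 of them, Col1a1 (-2.14 ± 0.38) and Col1a2 (-1.91 ± 0.39), were called lower in fat. The 6 adipocyte markers summed to 6.35 to 10.01 CPM in aorta, with Lep and Retn at 0, and 26.6 to 114.5 CPM in fat, and 3 of them (Cfd, Fabp4 and Retn) were called higher in fat. Of the other lists in LYVE1+ cells, 2 of 6 monocyte, 2 of 8 dendritic cell and 1 of 10 T and NK cell markers were called higher in fat and 1 of 5 smooth muscle markers lower. In LYVE1- cells the same comparison called 2 of 6 fibroblast, 3 of 5 smooth muscle and 1 of 5 tested eosinophil markers lower and 3 of 6 adipocyte markers higher. The part of these cell types in the members' difference between tissues was not tested.

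Of the 6 monocyte markers, Ccr2, a chemokine receptor, was called lower in LYVE1+ cells in both tissues, at -3.11 ± 0.46 in fat (adjusted p = 0.0024 by edgeR) and -4.40 ± 0.49 in the aorta (adjusted p = 0.0020). The other 5 were not called in either tissue, and those with positive values included Plac8 in fat (1.13 ± 0.48) and Chil3 in the aorta (2.05 ± 1.4). The summed level of the 6, in CPM of the plain library size, was 668 to 855 in LYVE1- fat and 74.4 to 350.5 in LYVE1+ fat, and 167 to 333 in LYVE1- aorta and 26.0 to 34.7 in LYVE1+ aorta, with none of the 6 markers at 0 in any group. The mitosis genes differed by sort in fat and were not called in the aorta. Dendritic cell markers summed to 228 to 533 CPM in LYVE1- fat and 347 to 527 CPM in LYVE1+ fat. Of these 8, Cd209a was called higher in LYVE1+ fat cells (0.72 ± 0.17, adjusted p = 0.030 by edgeR), and in the aorta Clec9a and the eosinophil marker Prg2, both at 0 in LYVE1+ cells, were called lower there. No other tested marker of the cell type lists was called between the sorts in either tissue. All 6 mast cell markers were nevertheless lower in LYVE1+ aorta without overlap (11.3% of all genes tested did so), each with an unadjusted p under 0.05 by edgeR. They summed to 46.1 to 79.9 CPM in LYVE1- and 1.84 to 12.7 CPM in LYVE1+ aorta. In fat 5 of the 6 were positive and 0 had an unadjusted p under 0.05. The part of these cell types in the mitosis result was not tested.

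The members' levels were correlated across libraries. Over the 12 libraries the median Pearson correlation of log2 CPM between pairs of members was 0.74, as a description of libraries that share groups and depth. The correlation of a member with the mean of the other members ran from 0.98 for Top2a and Cdc20 down to 0.39 for Smc4, and was negative for Espl1 (-0.15), Cenpa (-0.56) and Pttg1 (-0.66). Among the genes outside the list with the most similar pattern were Mcm5 (r = 0.955 over 12 libraries), Asf1b, Dlgap5, Tk1, Ccnf, Mcm3, Tubb5, Ska1 and Spag5 (r = 0.934). Mcm5, a subunit of the replicative helicase, averaged 51.6 and 57.3 CPM in LYVE1- and LYVE1+ aorta, 78.2 CPM in LYVE1- fat and 26.7 CPM in LYVE1+ fat.

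Motif content was then set beside the calls in fat. Of the 33 members with a hexamer in a promoter 25 were called lower, with a median log2 fold change of -1.68, and of the 11 with a promoter entry but no hexamer 6 were, with a median of -1.63. Of the 8 with neither hexamer nor CCAAT box 5 were called. Among the 3 members that were not negative in fat, Pttg1 had neither motif, while Cenpa had 1 hexamer and 2 CCAAT boxes and Espl1 had 1 of each, in the sequences printed above. The window searched for Pttg1 (43425932 to 43426231) lies inside its GENCODE gene, which starts at 43426251 on the minus strand. The windows of Cdca3, Cdca8, Kif2c and Kif4, which each held a hexamer, also lie inside their GENCODE genes. Bases upstream of these GENCODE starts were not searched. Neighbouring CCAAT boxes were 30 to 34 bases apart in 23.8% of 42 pairs in members' promoters and in 9.41% of 5418 pairs in all promoters. The members' pairs came from 1 promoter per gene, while among all promoters a gene could enter with several, so the bases differ.

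Other lists of the cell cycle were examined in fat in the same fit. In 61 further mitosis genes, 18 were called lower and 1 higher (median -1.34). The 4 with the smallest adjusted p were Pkmyt1, which restrains Cdk1 (31.0 ± 3.4 CPM in LYVE1- and 7.404 ± 2.5 CPM in LYVE1+ fat, SD, n = 3), Ccnf (20.0 ± 1.3 against 3.54 ± 1.3 CPM), Ckap2l (25.3 ± 9.4 against 5.39 ± 1.7 CPM) and Dlgap5 (9.99 ± 0.67 against 1.92 ± 0.50 CPM). The 1 that was higher, named after its value was seen, was Cdc25b, a phosphatase that activates cyclin-CDK complexes (30.6 ± 4.0 against 66.7 ± 4.5 CPM, log2 fold change 1.13 ± 0.17, adjusted p = 0.0025). Of 24 DNA replication genes all were negative and 13 were called lower, with a smaller median of -0.93. They included thymidine kinase (Tk1, -1.98 ± 0.21, adjusted p = 0.00047), the ribonucleotide reductase subunit Rrm2 (-2.04 ± 0.22, adjusted p = 0.00047) and the helicase subunits Mcm5 (-1.55 ± 0.18, adjusted p = 0.00055) and Mcm3 (-0.83 ± 0.12, adjusted p = 0.0027). Of 12 G1 cyclins, their kinases, E2F factors and Myc, 2 were called lower, Ccnd1 (-1.36 ± 0.18, adjusted p = 0.0013) and Cdk6 (-0.81 ± 0.20, adjusted p = 0.044). Without both fat libraries numbered 1 the counts called lower were 23 of the 61, 17 of the 24 and 4 of the 12, where Ccnd2, E2f2 and Myc joined Ccnd1 and Cdk6 lost its call (adjusted p = 0.15 by edgeR). The replicate block gave 22, 15 and 4, with Ccnd2 and Ccne2 joining Ccnd1 and Cdk6, where 3.3% of all genes were called lower.

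Few genes of the machinery that is also present outside mitosis were called in fat. Of the 16 genes of the anaphase-promoting complex and its regulators, 1 was called, the inhibitor Fbxo5 (-1.27 ± 0.33, adjusted p = 0.048), with a list median of 0.04. It lost the call with the replicate block (adjusted p = 0.067 by edgeR). Cohesin and its loaders had 0 of 9 called by edgeR and 0 with an unadjusted p under 0.05 (median -0.19), with Nipbl at -0.23 ± 0.19 and Smc1a at -0.29 ± 0.15. The MuvB, DREAM, B-Myb and NF-Y genes had 0 of 14 called and 3 with an unadjusted p under 0.05 (median -0.07), with Rbbp4 at -0.23 ± 0.14 and Rbl2 at -0.11 ± 0.17. Among CDK inhibitors and quiescence factors 0 of 11 tested were called and 3 had an unadjusted p under 0.05 (median -0.07). Those with the highest mean CPM were Btg2 (-0.50 ± 0.20, adjusted p = 0.22) and the p21 gene Cdkn1a (-0.07 ± 0.21, adjusted p = 0.91). In this list Btg1 was called lower in fat with the replicate block (-0.83 ± 0.14, adjusted p = 0.0084) and without both fat libraries numbered 1 (-0.81 ± 0.17, adjusted p = 0.015), and in the MuvB list Rbl1 was called in the latter fit (-0.73 ± 0.19, adjusted p = 0.042). In the aorta the only called gene of these lists was Btg1, an antiproliferative factor, at -1.22 (adjusted p = 0.035). Without both fat libraries numbered 1, Ccnd2 was also called lower in the aorta (-1.84 ± 0.38, adjusted p = 0.018 by edgeR) and Ccnd3 higher (0.53 ± 0.135, adjusted p = 0.049). In that fit 2.23% of all genes were called lower and 1.6% higher in the aorta.

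Per kilobase of exon, the most abundant members in LYVE1- fat were Cks2 (36.4 CPM per kb), Stmn1 (19.2), Ccnb2 (18.7), Cdc20 (15.3) and Aurkb (14.5). In LYVE1+ fat Cks2 (19.2) and Pttg1 (18.2) came first. Some values are uncertain because reads of overlapping genes cannot be separated without strand: 29.3% of the exon bases of Kif20a overlap Cdc23 on the opposite strand, 22.8% of Ube2c overlap Tnnc2, 15.1% of Kif4 overlap Pdzd11, 13.4% of Ncapg overlap Lcorl, 12.5% of Ccna2 overlap Exosc9 and 11.1% of Prc1 overlap Rccd1. Ccnb1, Ccnb2, Kif22 and Kif4 have named pseudogenes that could share reads.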

How the data were processed

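The deposited table holds raw counts, whole numbers per gene, that the authors made from paired reads of 51 cycles. Per the submitters' processing notes the tools were STAR 2.5.2b, featureCounts 1.5.0 and edgeR 3.14.0, with build GRCm38. Which annotation release and strand setting were used, and how multiply mapped reads were treated, is not given in the sources used here, and the deposited log2 CPM values were not used. Symbols and exon lengths came from GENCODE M21 by Ensembl identifier (46005 of 46517 genes matched), and promoters from RefSeq (GRCm38.p6).

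Counts were fitted with edgeR 4.0.16 in R 4.3.3: quasi-likelihood, TMM factors, filterByExpr (14216 genes kept), 1 mean per group over all 12 libraries and 8 residual degrees of freedom. The contrasts were LYVE1+ minus LYVE1- within fat and within aorta, the difference of these 2, and fat against aorta in each sort. A call is a two-sided, Benjamini-Hochberg adjusted p under 0.05. The standard error (SE) was derived from the log2 fold change and its F statistic, as the absolute change over the root of F. Levels are TMM-scaled CPM, and correlations use log2 CPM with a prior count of 2. The script was tested on simulated data. Alternatives were DESeq2 1.42.0, RLE factors, no filter, the groups compared only, the library-name prefix as a term, a replicate block, each library left out, and both fat libraries numbered 1 left out. For the LYVE1 comparisons and their difference the block was the library number within each tissue. For fat against aorta it was the library number shared across the tissues.

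The members and lists were chosen with earlier results of these data known. Values of each library are given for up to 3 members of each role with the smallest adjusted p in fat, for members called in another comparison (up to 6), and for the 3 members with the lowest mean CPM. Other lists give up to 4 called genes, or the 2 with the highest mean CPM where none was called, and 10 genes were taken by correlation with the members' mean, of which 1 is not reported here. Further members are named to account for all 53. One gene of these lists, Knstrm, was not matched.

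Replicate numbers were checked for pairing by the correlation of same-numbered libraries' deviations from their group means. In fat all 3 were over 0.1 (0.486, 0.279 and 0.184), which was taken as pairing there, and in the aorta none was (-0.0441, -0.0767 and -0.17). However, the unmatched pairs of fat libraries 2 and 3 gave 0.192 and 0.225, and unmatched pairs with a fat library 1 gave -0.366 to -0.269. The values thus set both libraries numbered 1 apart and cannot show that libraries 2 and 3 are paired by number. Same-numbered fat and aortic libraries gave -0.201, 0.0269 and -0.168 in LYVE1+ cells and 0.202, 0.0929 and 0.0323 in LYVE1- cells. These values did not show pairing by number across tissues. No 2 libraries of a group agreed within sampling noise. Promoter sequences were lacking for 9 members.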

Additional observations from a re-analysis of the deposited data

Results flagged for a closer look

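In 13 members the LYVE1 difference itself differed between the tissues by edgeR's interaction test, each with a lower fat change than aortic change. The log2 values (fat change minus aortic change) were -3.20 for Hmmr, -2.38 for Nusap1, -2.30 for Cdc20, -2.29 for Spc24, -2.24 for Aurka, -2.17 for Tpx2 and -2.15 for Birc5. For the remaining genes they were -2.02 for Prc1, -2.0 for Stmn1, -1.92 for Ncapd2, -1.82 for Mki67, -1.72 for Top2a and -1.70 for Racgap1. Adjusted p was 0.021 to 0.048 for these genes, and none kept the call in every fit that left out 1 library. Those of the fits that called 0 members called 0 genes in the whole table. With the replicate block 10 of the 13 kept the call, and Aurka, Nusap1 and Spc24 lost it.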

How the results depend on the processing

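The count of members called lower in fat was 38, fell to 22 with only the 2 groups compared and ranged from 22 to 40 with 1 library left out. The share of all genes called lower was 2.1%, 0.946% and 0.798% to 3.74% in these fits. The count for the difference between tissues was 13 and ranged from 0 to 19 with 1 library left out. It was 27 with DESeq2, 21 without the low-count filter, 22 without both fat libraries numbered 1 and 0 with the prefix as a term. The share of all genes called lower was 0.148% in the main fit and 0 to 0.262% with 1 library left out. It was 0.573% with DESeq2, 0.189% without the filter and 0.413% without both fat libraries numbered 1. Fits with 0 members called for this difference also called 0 genes in the whole table. In LYVE1+ cells fat against aorta gave 29, 15 with the prefix term, 19 with only the 2 groups compared and 15 to 32 with 1 library left out. In the same order, 1.88%, 0.83%, 1.13% and 0.738% to 2.21% of all genes were called lower. In LYVE1- cells, where the prefix coincided with the tissue, it gave 0, and 0 with the prefix term. It gave 2 with DESeq2, 6 without both fat libraries numbered 1 and 0 to 1 with 1 library left out. The share of all genes called higher there was 2.13% with DESeq2, 2.8% without both and 0.205% to 1.31% with 1 library left out. The aortic count was 0 under all 19 alternatives. The cause of these shifts was not tested, except that leaving out libraries or groups leaves fewer samples in the fit. With the replicate block within each tissue the counts were 40 in fat, 0 in the aorta and 12 for the difference. With the block across tissues, where the numbers did not show pairing, they were 23 in LYVE1+ and 0 in LYVE1- cells. These fits called 3.3% of all genes lower in fat, 0.127% for the difference and 1.67% in LYVE1+ cells. In the aorta and in LYVE1- cells they called 1.71% and 2.25% in either direction. In fat the block gained Ccnb1 and Cks2 and ended no member's call. For the difference between tissues the block shared 10 of its 12 calls with the 13, and in LYVE1+ cells 22 of its 23 with the 29. No result reversed. Of single-gene results, pooled over all members, comparisons and alternatives, 4529 stayed on their side of the threshold, 367 lost and 86 gained a call. The 4529 include results with no call to lose, among them all those of the aortic and LYVE1- comparisons, so they do not measure how stable the calls were. The cell cycle lists other than the members were refitted with the block and without both fat libraries numbered 1 after the data were seen. The SE in fat was 0.75, 0.55 and 0.56 for Ttk, Kif4 and Kif2c, the members with the lowest mean CPM, against a median of 0.289, and it was also 0.51 and 0.52 for Ccnb1 and Melk at higher levels; what part depth has in these errors was not tested.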
